A study of Mus musculus with 2 samples.

Results

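The genes described here are 9 lysosomal cathepsins (Ctsl, Ctsd, Ctsb, Ctsz, Ctss, Ctsk, Ctsf, Ctsh and Ctsc) and Cst3, the gene of their inhibitor cystatin C. They were found by symbol, and all 10 had a row among the 31920 gene symbols of the deposited table. The study sequenced polyadenylated RNA of the cardiac left ventricle of a male mouse labelled Lamp2 knockout and of a male wildtype mouse, both 129-SvEv and 10 weeks old, with 1 library per group. LAMP2, a glycoprotein of the lysosomal membrane, is encoded on the X chromosome, and the deposited table names the first library HEMI. The allele is not described in the labels. Gene-assigned reads numbered 8773820 in the knockout-labelled library and 8410593 in the wildtype library.

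Cathepsins are proteases that break down proteins delivered to lysosomes by endocytosis and autophagy. They are made as inactive precursors, carried to lysosomes by mannose 6-phosphate receptors and activated there by removal of a propeptide. Most are cysteine proteases of the papain family, whereas cathepsin D is an aspartic protease. Cystatin C is a secreted protein that blocks cysteine cathepsins and does not inhibit cathepsin D. In mice, loss of cathepsin L leads to dilated cardiomyopathy, and in humans loss of LAMP2 causes Danon disease, in which the heart muscle thickens.

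With 1 library per group there was no spread between animals, so no genotype difference was tested and no p-value is given. Levels are reads per 1000000 gene-assigned reads (RPM). Each ratio is the knockout-labelled RPM over the wildtype RPM, followed by its exact binomial 95% interval, which covers counting error only. A gene was measured at 5 RPM or more in the higher library, and it passed the 2-fold rule when its log2 ratio, taken after adding 1 RPM to each library's level, was 1 or more in size. Of 10209 measured genes, 342 were higher and 242 lower by this rule, and the median log2 ratio was 0.11. Mitochondrial genome rows held 16.2% of reads in the knockout-labelled library and 26.5% in the wildtype library, which shifts the RPM of all remaining genes. Lamp2 itself had 986 reads in the knockout-labelled library and 990 in the wildtype library, a ratio of 0.955 (0.873 to 1.04). Gene-level reads do not show whether part of the transcript is missing, so the label is not checked by them and every direction refers to the library as labelled. All 10 cardiomyocyte markers were measured in both hearts, with the cardiac myosin gene Myh6 at 18405 RPM in the knockout-labelled library and 19313 RPM in the wildtype library.

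The promoters of 8 members were in the RefSeq table of build GRCm38.p6, as windows of 250 bases before and 50 after the annotated start. They were searched for CACGTG, the core bound by the TFEB family of lysosomal gene regulators and for the longer palindrome TCACGTGA that contains it. These motifs read the same on both strands. CACGTG stood in 3 of the 8 windows, against 7.15% of 32851 windows of all genes. The Ctsd window held it at 2 places, 245 and 98 bases upstream of the start, and the nearer one lay inside TCACGTGA, which 0.974% of all windows hold. The windows of Ctsl and Ctsf held CACGTG once each, 236 and 79 bases upstream. The windows are shown for these 3 genes, and for Ctsc, the member that was at least 2-fold lower. Capitals mark CACGTG.
Ctsl, chr13:64370471-64370770, minus strand: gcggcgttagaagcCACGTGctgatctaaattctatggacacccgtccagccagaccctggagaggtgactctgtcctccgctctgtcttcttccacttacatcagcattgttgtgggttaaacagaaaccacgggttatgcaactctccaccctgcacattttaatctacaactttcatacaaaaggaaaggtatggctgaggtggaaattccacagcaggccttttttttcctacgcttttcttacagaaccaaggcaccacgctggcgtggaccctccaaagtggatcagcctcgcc
Ctsd, chr7:142387778-142388077, minus strand: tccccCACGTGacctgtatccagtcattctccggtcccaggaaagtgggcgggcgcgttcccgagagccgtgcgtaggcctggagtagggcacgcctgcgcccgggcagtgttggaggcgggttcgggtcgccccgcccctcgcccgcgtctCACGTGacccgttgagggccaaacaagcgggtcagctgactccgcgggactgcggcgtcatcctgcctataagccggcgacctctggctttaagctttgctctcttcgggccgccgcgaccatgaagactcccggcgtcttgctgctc
Ctsf, chr19:4854915-4855214, plus strand: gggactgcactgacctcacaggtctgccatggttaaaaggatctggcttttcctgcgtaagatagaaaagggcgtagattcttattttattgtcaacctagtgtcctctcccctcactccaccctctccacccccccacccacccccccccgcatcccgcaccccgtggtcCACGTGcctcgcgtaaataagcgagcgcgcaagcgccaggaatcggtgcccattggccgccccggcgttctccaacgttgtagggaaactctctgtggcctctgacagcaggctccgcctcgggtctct
Ctsc, chr7:88277835-88278134, plus strand: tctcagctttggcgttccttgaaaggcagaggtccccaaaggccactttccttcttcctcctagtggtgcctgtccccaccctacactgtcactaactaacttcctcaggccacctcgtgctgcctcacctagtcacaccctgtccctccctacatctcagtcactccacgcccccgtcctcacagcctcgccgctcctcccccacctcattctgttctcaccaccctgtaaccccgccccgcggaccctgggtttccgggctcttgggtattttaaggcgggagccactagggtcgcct
The Ctsl window is set on a RefSeq start that lies 214 bases upstream of the start of the deposited Ctsl row, so the motif is farther from that row than the window shows. A match of letters is a description and does not show that a factor binds there.

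Among the members, Ctsl was higher and Ctsc lower by at least 2-fold in the knockout-labelled library, and the other 7 measured members lay within 2-fold. These were 2 of 9 measured members, against 5.72% of all measured genes, or 3.35% higher and 2.37% lower. Ctsk, at 3.42 RPM in the knockout-labelled library and 1.78 RPM in the wildtype library, was under the 5 RPM minimum. Over the 9 measured members the log2 ratio had a median of 0.34 (0.14 to 0.22 when rescaled), against 0.11 for all measured genes, and 6 of 9 lay above 0, against 61.2% of all measured genes. A count of 9 genes is too few to read this difference as particular to the family.

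**Figure D1:**
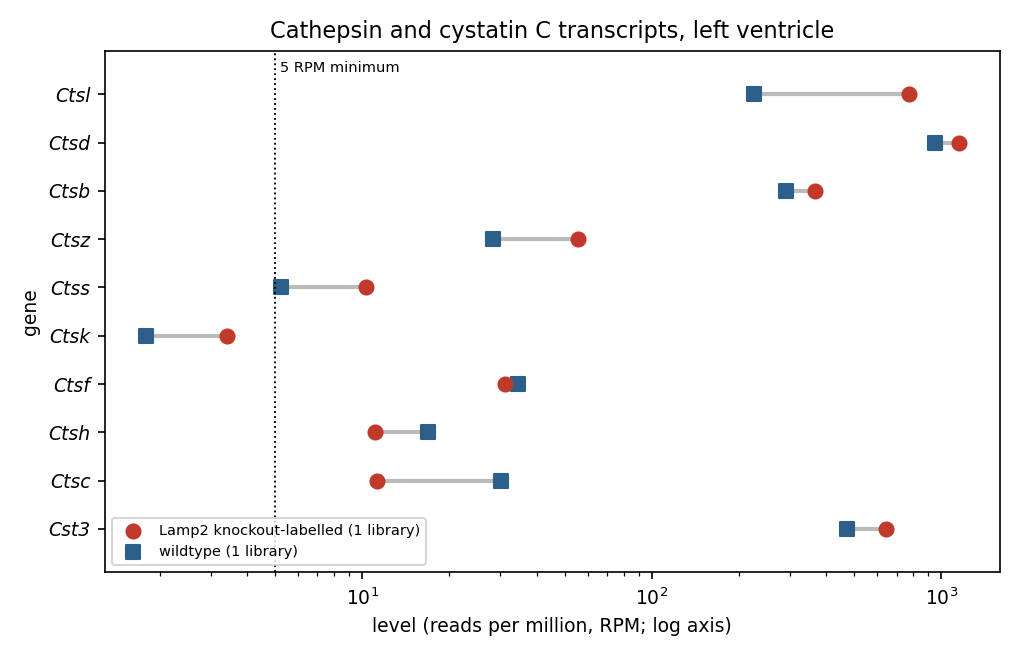
Level of each member in RPM on a log axis, with 1 point per library (circles, Lamp2 knockout-labelled; squares, wildtype; 1 library per group). Ctsl and Ctsc have the widest gaps, in opposite directions, and the levels span from 1.78 RPM for Ctsk in the wildtype library to 1151 RPM for Ctsd in the knockout-labelled library.

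Ctsl encodes cathepsin L, a cysteine endopeptidase, and lies on the minus strand of chromosome 13 from 64363214 to 64370306 in the mm10 build. It had 6808 reads in the knockout-labelled library and 1898 in the wildtype library, which are 776 and 226 RPM. The ratio was 3.44 (3.27 to 3.62), and 84 of 10209 measured genes had a higher one. Of 608 genes with a mean of at least 200 RPM, 10 had a ratio above that of Ctsl. Ratios this high were thus not rarer among abundant genes than among all measured genes. The difference of 550 RPM for Ctsl was exceeded by 35 genes outside the mitochondrial genome. No other annotated gene had a transcript stretch of 100 bases or more with at least 95% identity to Ctsl, and no other row overlapped it.

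Ctsd and Ctsb, which encode the other abundant cathepsins, were higher by about the same small amount. Ctsd, the aspartic protease (chromosome 7, minus strand, 142375916 to 142387870), had 10102 reads in the knockout-labelled library and 8013 in the wildtype library, or 1151 and 953 RPM, a ratio of 1.21 (1.17 to 1.24). Ctsb encodes cathepsin B, which acts both as an endopeptidase and as a dipeptidyl carboxypeptidase (chromosome 14, plus strand, 63122462 to 63145923). Its 3216 reads in the knockout-labelled library and 2442 in the wildtype library correspond to 367 and 290 RPM, a ratio of 1.26 (1.20 to 1.33). After 3 rescalings that remove the shift of most genes, the ratio was 1.06 to 1.11 for Ctsd and 1.10 to 1.16 for Ctsb, each with an interval that excluded 1. The 3′ end of the Ctsb row overlaps 774 bases of Fdft1, a gene of sterol synthesis on the opposite strand, with 176 reads in the knockout-labelled library and 192 in the wildtype library. Strand use in counting is not given in the sources used here, so reads of the shared stretch cannot be assigned to either gene. Ctsd shares a transcript stretch of at least 100 bases, at 97.3% identity, with Gm49369, an annotated gene that was not used here. How reads of that stretch were assigned is not known.

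Ctsz, Ctss and Ctsk each had a ratio just under 2, and none passed the rule. Ctsz encodes cathepsin Z, a carboxypeptidase (chromosome 2, minus strand, 174427494 to 174438992), and had 488 reads in the knockout-labelled library and 238 in the wildtype library. These are 55.6 and 28.3 RPM, with a ratio of 1.97 (1.68 to 2.30), and its row overlaps Th1l on the opposite strand by 9 bases. Ctss encodes cathepsin S, which trims the invariant chain of MHC class II molecules in antigen-presenting cells (chromosome 3, plus strand, 95526786 to 95556403). It had 90 reads in the knockout-labelled library and 44 in the wildtype library, or 10.3 and 5.23 RPM, a ratio of 1.96 (1.35 to 2.88). Ctsk, known as the collagen-degrading cathepsin of osteoclasts, lies 17423 bases before Ctss on the same strand (95499286 to 95509362). It had 30 reads in the knockout-labelled library and 15 in the wildtype library, and its ratio of 1.92 (0.9997 to 3.83) was not distinguishable from 1 at this depth, since the lower bound lies just below 1. The nearest genes to the 2-fold rule were thus Ctsz and Ctss, at log2 ratios of 0.95 and 0.85 with the pseudocount.

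Macrophage markers did not all stand in 1 direction. Of 18 markers 10 were measured, each with a log2 ratio above 0, against 61.2% of all measured genes. Of these 10 markers, 2 reached the 5 RPM minimum through the knockout-labelled library alone. Of the 8 unmeasured markers 5 lay below 0 and 3 above 0. The chemokine receptor gene Cx3cr1 was among those below and Emr1 among those above, both chosen after their values were seen. Cx3cr1 was at 0.684 RPM in the knockout-labelled library and 3.45 RPM in the wildtype library. Emr1 was at 2.74 and 0.951 RPM in the same order. With a minimum of 1 RPM in place of 5 the median log2 ratio of the list was 0.25 in place of 0.64. Of the 10 measured markers 2 were at least 2-fold higher, against 3.35% of all measured genes. They were C1qb and C1qa, which encode chains of complement C1q. C1qb was at 121 RPM in the knockout-labelled library and 45.8 RPM in the wildtype library, and C1qa at 82.1 and 37.7 RPM in the same order. The summed level of the markers was 395 RPM in the knockout-labelled library and 224 RPM in the wildtype library. The receptor gene Csf1r, which defines the lineage, differed less, at 32.4 RPM in the knockout-labelled library and 27.0 RPM in the wildtype library, and Fcgr1 had 0 reads in the knockout-labelled library and 9 in the wildtype library. The part of these cells in the Ctss and Ctsz values was not tested. In bulk tissue, more cells of a type and more RNA per cell cannot be told apart.

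Ctsh and Ctsc were lower in the knockout-labelled library, and the ratio of Ctsf was not distinguishable from 1 on the RPM scale. Ctsf encodes cathepsin F, a widely expressed cysteine protease (chromosome 19, plus strand, 4855129 to 4860912), and had 274 reads in the knockout-labelled library and 289 in the wildtype library. At 31.2 and 34.4 RPM its ratio was 0.909 (0.768 to 1.08), an interval that includes 1. Under each of the 3 rescalings the interval excluded 1, at ratios from 0.793 to 0.838. Ctsh, the aminopeptidase cathepsin H (chromosome 9, plus strand, 90054267 to 90076095), had 97 reads in the knockout-labelled library and 142 in the wildtype library, or 11.1 and 16.9 RPM, a ratio of 0.655 (0.501 to 0.854).

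Ctsc encodes cathepsin C, the dipeptidyl peptidase that activates serine proteases stored in granules of neutrophils, mast cells and cytotoxic lymphocytes (chromosome 7, plus strand, 88278093 to 88310875). It had 99 reads in the knockout-labelled library and 253 in the wildtype library, which are 11.3 and 30.1 RPM. The ratio of 0.375 (0.294 to 0.475) was lower than that of all but 116 of the 10209 measured genes. Of the 7 neutrophil markers in the table only S100a9 was measured, at 10.0 RPM in the knockout-labelled library and 0.594 RPM in the wildtype library. It reached the 5 RPM minimum through the knockout-labelled library alone, so it could not have counted as lower. Its ratio, from 88 and 5 reads in the same order, was 16.9 (6.96 to 53.2), opposite in direction to that of Ctsc. Summed over all 7, measured or not, the markers were at 15.2 RPM in the knockout-labelled library and 1.66 RPM in the wildtype library. S100a9 gave most of the sum in the knockout-labelled library. Most fibroblast markers were lower alongside Ctsc, with 5 of 10 at least 2-fold lower, against 2.37% of all measured genes. The median log2 ratio was −0.92 and 9 of 10 lay below 0, among them Pdgfra at a ratio of 0.982 (0.848 to 1.14). Lum and Tcf21 reached the 5 RPM minimum through the wildtype library alone. The summed level of the markers was 548 RPM in the knockout-labelled library and 668 RPM in the wildtype library, and no fibroblast marker was at 0. Dcn was at 393 RPM in the knockout-labelled library and 379 RPM in the wildtype library, whereas Col3a1 was at 6.38 and 36.4 RPM in the same order. The part of these cells in the Ctsc value was not tested. Of the other cell types, none of 8 endothelial and none of 7 measured smooth muscle and pericyte markers passed the rule. The share over all measured genes was 5.72%. Their median log2 ratios were 0.03 (−0.16 to −0.084 when rescaled) for endothelial and −0.43 (−0.62 to −0.54) for smooth muscle and pericyte markers. Among cardiomyocyte markers 1 of 10 passed the rule, the natriuretic peptide gene Nppa. It was at 10987 RPM in the knockout-labelled library and 2868 RPM in the wildtype library.

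Cst3 was higher in the knockout-labelled library by less than 2-fold. The gene lies on the minus strand of chromosome 2 from 148871732 to 148875468, and it had 5639 reads in the knockout-labelled library and 3973 in the wildtype library. At 643 and 472 RPM the ratio was 1.36 (1.31 to 1.42), or 1.19 to 1.25 under the rescalings. Its ratio was larger than that of Ctsd or Ctsb and smaller than that of Ctsl.

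**Figure D2:**
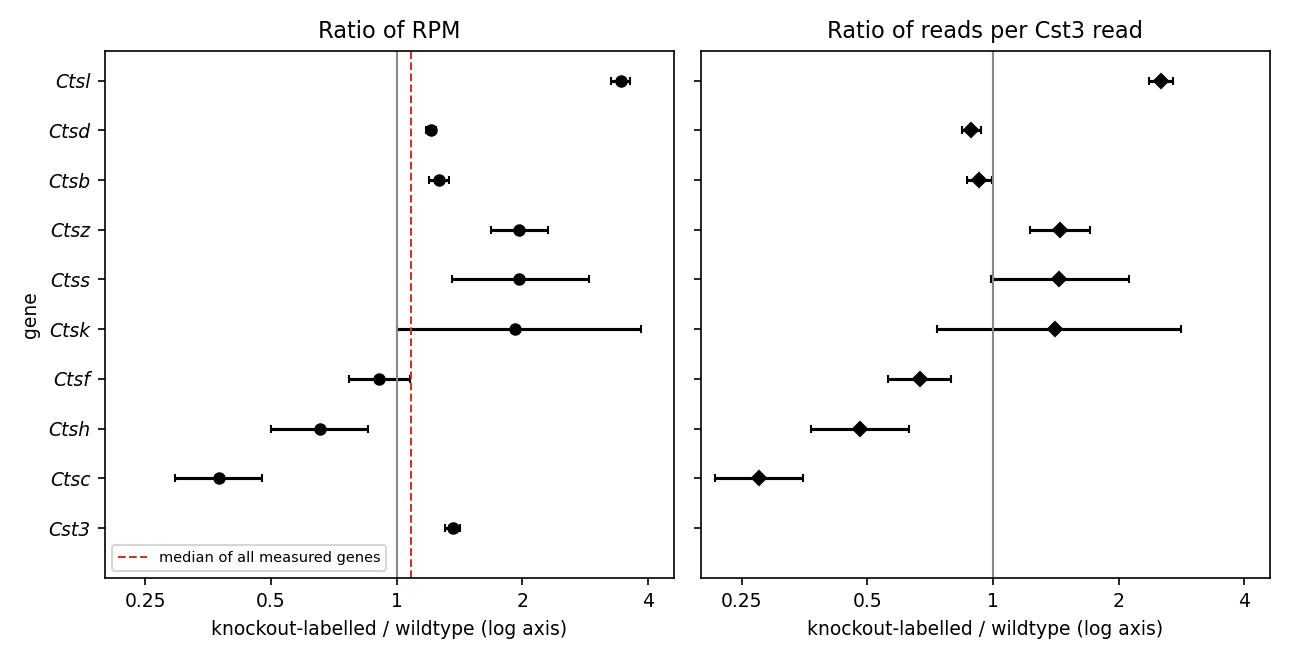
Left, ratio of RPM of the knockout-labelled over the wildtype library for each member; right, the same ratio for reads per Cst3 read, which no rescaling of the libraries can alter. Both axes are logarithmic, bars are exact 95% intervals that cover counting error only (1 library per group), and the dashed line is the median of all measured genes. Ctsl stands to the right at 3.44 and 2.53 and Ctsc to the left at 0.375 and 0.276.

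Set against Cst3 within each library, the cathepsins split into 3 kinds. Ctsl had 1.21 reads per Cst3 read in the knockout-labelled library and 0.478 in the wildtype library, so its balance with the inhibitor was 2.53 (2.37 to 2.70) times as high. The ratio was also above 1 for Ctsz, at 1.44 (1.23 to 1.70). The intervals of Ctss at 1.44 (0.992 to 2.12) and Ctsk at 1.41 (0.734 to 2.82) included 1. Ctsd at 0.888 (0.845 to 0.934) and Ctsb at 0.928 (0.868 to 0.992) were slightly lower relative to Cst3. Ctsf, Ctsh and Ctsc were lower still, at 0.668 (0.561 to 0.795), 0.481 (0.367 to 0.630) and 0.276 (0.216 to 0.351). The interval for Ctsf therefore excluded 1 on this scale, although it included 1 on the RPM scale.

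The summed level of the 9 cathepsins was 2417 RPM in the knockout-labelled library and 1585 RPM in the wildtype library, a ratio of 1.52 (1.49 to 1.56). In share of all reads this was 0.242% (0.238 to 0.245) in the knockout-labelled library and 0.159% (0.156 to 0.161) in the wildtype library. Ctsl alone made up 66.2% of the difference in RPM. Without Ctsl, the sum was 1641 RPM in the knockout-labelled library and 1360 RPM in the wildtype library, a ratio of 1.21 (1.18 to 1.24). The 8 cysteine cathepsins, without the aspartic Ctsd, stood at 1265 RPM in the knockout-labelled library and 633 RPM in the wildtype library, a ratio of 2.0 (1.94 to 2.07). Per Cst3 read, the 9 cathepsins had 3.76 reads in the knockout-labelled library and 3.36 in the wildtype library, a ratio of 1.12 (1.07 to 1.17). The 8 cysteine cathepsins, the kind that cystatin C blocks, had 1.97 reads per Cst3 read in the knockout-labelled library. In the wildtype library they had 1.34, a ratio of 1.47 (1.39 to 1.55). Ctsl held 6808 of their 11102 reads in the knockout-labelled library and 1898 of 5321 in the wildtype library. This balance and the ratio of 2.0 thus rest largely on Ctsl, and they do not describe the cysteine cathepsins as a class. Leaving Ctsl out of the 9 turned the direction of their balance, to 2.55 reads in the knockout-labelled library and 2.88 in the wildtype library, a ratio of 0.887 (0.846 to 0.930).

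The makeup of the cathepsin reads differed accordingly. Ctsl took 32.1% of them (exact 95% interval 31.5 to 32.7) in the knockout-labelled library and 14.2% (13.6 to 14.8) in the wildtype library. Ctsd took 47.6% (47.0 to 48.3) in the knockout-labelled library and 60.1% (59.3 to 60.9) in the wildtype library, and Ctsb 15.2% (14.7 to 15.7) and 18.3% (17.7 to 19.0) in the same order. Ctsc made up 0.467% (0.380 to 0.568) of cathepsin reads in the knockout-labelled library and 1.90% (1.67 to 2.14) in the wildtype library. Shares add up to the whole, so a larger share of Ctsl lowers those of all others. For every Ctsd read there were 0.674 Ctsl reads in the knockout-labelled library and 0.237 in the wildtype library, a ratio of 2.85 (2.68 to 3.02).

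**Figure D3:**
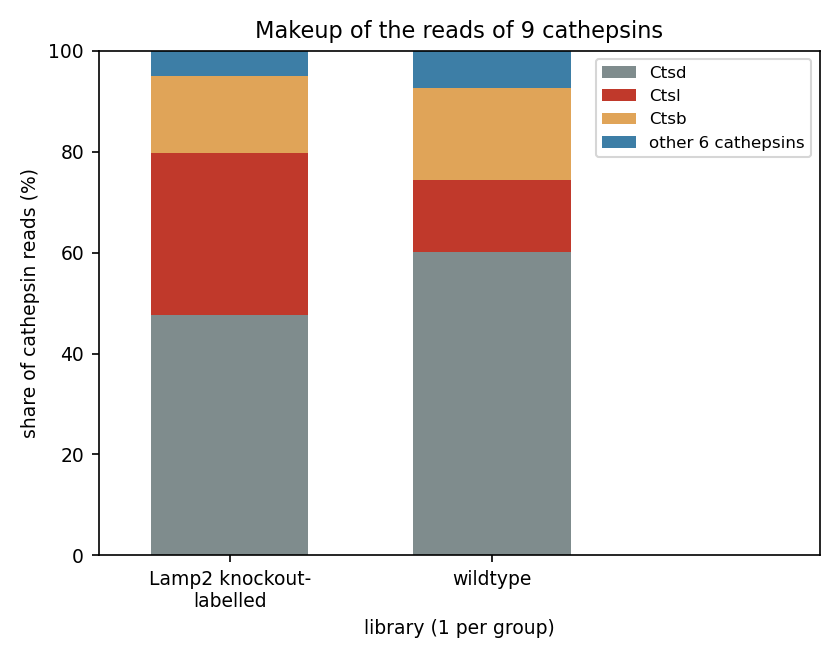
Share of each gene in the reads of 9 cathepsins, in percent, for the knockout-labelled library and the wildtype library (1 library per group). The Ctsl segment spans 32.1% in the knockout-labelled library and 14.2% in the wildtype library, while Ctsd is the largest segment in both.

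Compared between genes, levels were divided by the length of the annotated transcript whose ends lay closest to the deposited row, giving RPM per kilobase (RPKM). Cst3 led in both hearts, at 747 RPKM in the knockout-labelled library and 549 RPKM in the wildtype library, followed by Ctsd at 599 and 496 RPKM in the same order. Ctsl followed at 394 RPKM in the knockout-labelled library and 114 RPKM in the wildtype library, and then Ctsb at 77.3 and 61.2 RPKM. Ctsz, at 38.6 RPKM in the knockout-labelled library and 19.6 RPKM in the wildtype library, was next in both. It stood above Ctsf, at 15.8 RPKM, in the knockout-labelled library, whereas the counting intervals of these neighbours overlapped in the wildtype library, where Ctsf had 17.4 RPKM. Ctsc stood below Ctss and Ctsh in the knockout-labelled library, at 4.53 RPKM, and above both in the wildtype library, at 12.1 RPKM, and Ctsk was last in both at 2.26 RPKM in the knockout-labelled library and 1.18 RPKM in the wildtype library. Intervals of neighbours also overlapped for Ctss and Ctsh in the knockout-labelled library and for Ctsc and Ctsh in the wildtype library. With the length of all exons of coding transcripts together, which is 6329 bases for Ctsl in place of 1971, Ctsl moved behind Ctsb in the wildtype library, Ctsc behind Ctsk in the knockout-labelled library and Ctsc behind Ctsh in the wildtype library.

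**Figure D4:**
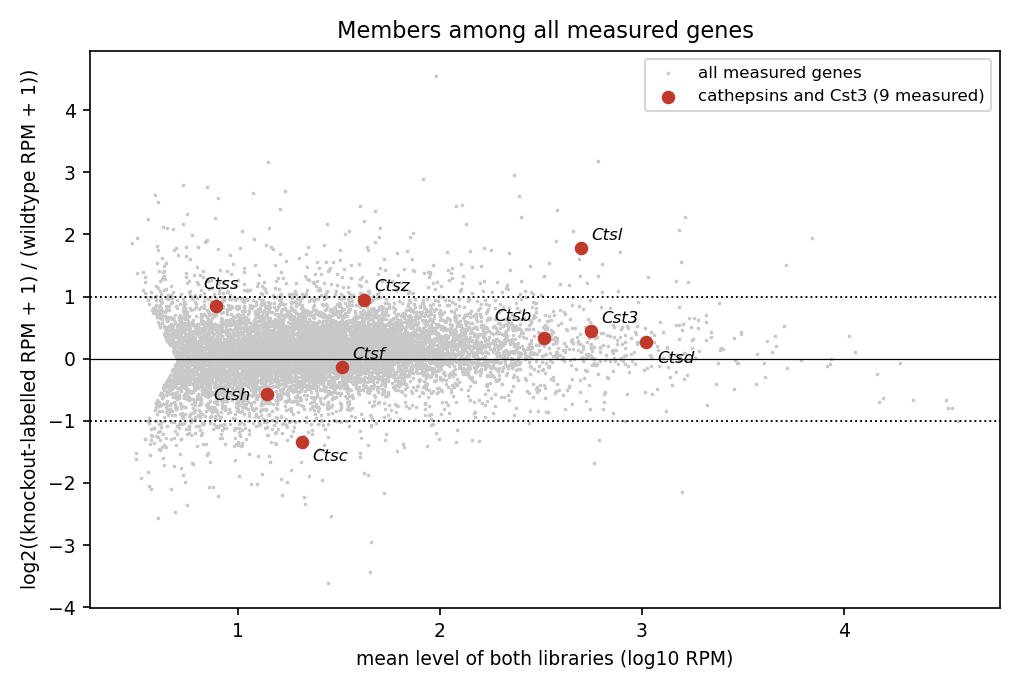
Log2 ratio of the knockout-labelled over the wildtype library with a pseudocount of 1 RPM against the mean level (log10 RPM) for 10209 measured genes (grey) and the 9 measured members (red), from 1 library per group. Dotted lines mark the 2-fold rule, which Ctsl passes above at 1.78 and Ctsc below at −1.34.

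Of the other 14 cathepsin rows, only Ctsa and Ctso were measured. Ctsa encodes the serine carboxypeptidase cathepsin A, which also protects lysosomal neuraminidase, and was at 183 RPM in the knockout-labelled library and 117 RPM in the wildtype library, a ratio of 1.56 (1.44 to 1.69). Ctso was at 9.23 RPM in the knockout-labelled library and 9.51 RPM in the wildtype library. A further 8 rows had 0 reads in both libraries, which allows up to 0.342 RPM in the knockout-labelled library and 0.357 RPM in the wildtype library. They include Ctsj, Ctsm, Ctsq and Ctsr, relatives of Ctsl that are known from the mouse placenta.

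Among 34 other cystatins and cathepsin inhibitors 6 were measured, and all 6 lay above 0 on the log2 ratio scale. Their median was 0.60, or 0.41 to 0.49 when rescaled, and 2 were at least 2-fold higher, against 3.35% of all measured genes. Cstb, which encodes the intracellular cystatin B, was at 19.9 RPM in the knockout-labelled library and 13.9 RPM in the wildtype library, and Cst6, of the secreted cystatin M, at 21.5 and 15.3 RPM in the same order. The 2 genes past the rule were Fetub and Ahsg, which encode fetuins, plasma proteins with cystatin folds that are made mainly in liver. Both reached the 5 RPM minimum through the knockout-labelled library alone, so neither could have counted as lower. Each had 82 reads in the knockout-labelled library, against 11 reads of Fetub and 32 of Ahsg in the wildtype library. Their ratios were 7.15 (3.79 to 14.9) and 2.46 (1.61 to 3.82). Serpinb6a, an intracellular serpin, was at 82.2 RPM in the knockout-labelled library and 53.3 RPM in the wildtype library. Cd74, the invariant chain that cathepsin S cleaves, was at 69.1 RPM in the knockout-labelled library and 45.7 RPM in the wildtype library, a ratio of 1.51 (1.33 to 1.72).

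The genes that sort and mature lysosomal enzymes had a median near that of all measured genes. Their median log2 ratio was 0.13 (−0.056 to 0.021 when rescaled), against 0.11 for all measured genes (−0.082 to −0.0047 when rescaled). None of 25 measured genes passed the 2-fold rule, against 5.72% of all measured genes. A list of 25 is too short to set these apart. Igf2r, the large mannose 6-phosphate receptor, was at 385 RPM in the knockout-labelled library and 378 RPM in the wildtype library, a ratio of 1.02 (0.970 to 1.07). Psap, which encodes the prosaposin precursor, was at 877 RPM in the knockout-labelled library and 775 RPM in the wildtype library. Lgmn, the asparaginyl endopeptidase that processes several cathepsins, had a ratio of 1.35 (1.17 to 1.55), at 56.2 RPM in the knockout-labelled library and 41.7 RPM in the wildtype library.

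The median log2 ratio of 14 measured genes of the transcriptional control of lysosomal genes was 0.25 (0.068 to 0.14 when rescaled). Of the 14, 1 was at least 2-fold higher, against 3.35% of all measured genes. This was Fnip2, a partner of folliculin in nutrient sensing at lysosomes, at 26.4 RPM in the knockout-labelled library and 12.4 RPM in the wildtype library, a ratio of 2.14 (1.69 to 2.72). Its paralogue Fnip1 went the other way, at 44.9 RPM in the knockout-labelled library and 59.3 RPM in the wildtype library. The TFEB family, singled out because its motif was searched in the promoters, did not stand in 1 direction. Tfeb was at 38.9 RPM in the knockout-labelled library and 31.0 RPM in the wildtype library. In the same order Tfe3 was at 22.3 and 16.9 RPM and Mitf at 34.3 and 43.2 RPM. Tfec had 0 reads in both.

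Most proteases of other families differed by less than 2-fold, as did most measured genes, of which 5.72% passed the rule. Short lists cannot set a count of 0 apart from that share. Of 7 measured genes of other lysosomal proteases and peptidases, a list that includes Ctsa and Lgmn, 0 passed the 2-fold rule and the median log2 ratio was 0.27 (0.046 to 0.16 when rescaled). Tpp1, the lysosomal tripeptidyl peptidase, was at 49.6 RPM in the knockout-labelled library and 43.2 RPM in the wildtype library. None of the 6 measured calpain system genes, which act in the cytosol, passed the rule, and their median was 0.35 (0.17 to 0.24 when rescaled). Capns1, the shared small subunit, was at 389 RPM in the knockout-labelled library and 278 RPM in the wildtype library, and Cast, which encodes the calpain inhibitor calpastatin, at 152 and 110 RPM in the same order. Extracellular matrix proteases and their inhibitors spread most, with 2 of 15 at least 2-fold higher, 1 lower and a median of −0.03 (−0.22 to −0.14 when rescaled). Timp3, a matrix-bound inhibitor of metalloproteinases, was at 1200 RPM in the knockout-labelled library and 363 RPM in the wildtype library, a ratio of 3.30 (3.17 to 3.44), close in size to that of Ctsl. Adamts1 was also higher, at a ratio of 2.25 (1.80 to 2.82), and the membrane-type metalloproteinase gene Mmp15 was lower, at 0.371 (0.315 to 0.436).

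**Figure D5:**
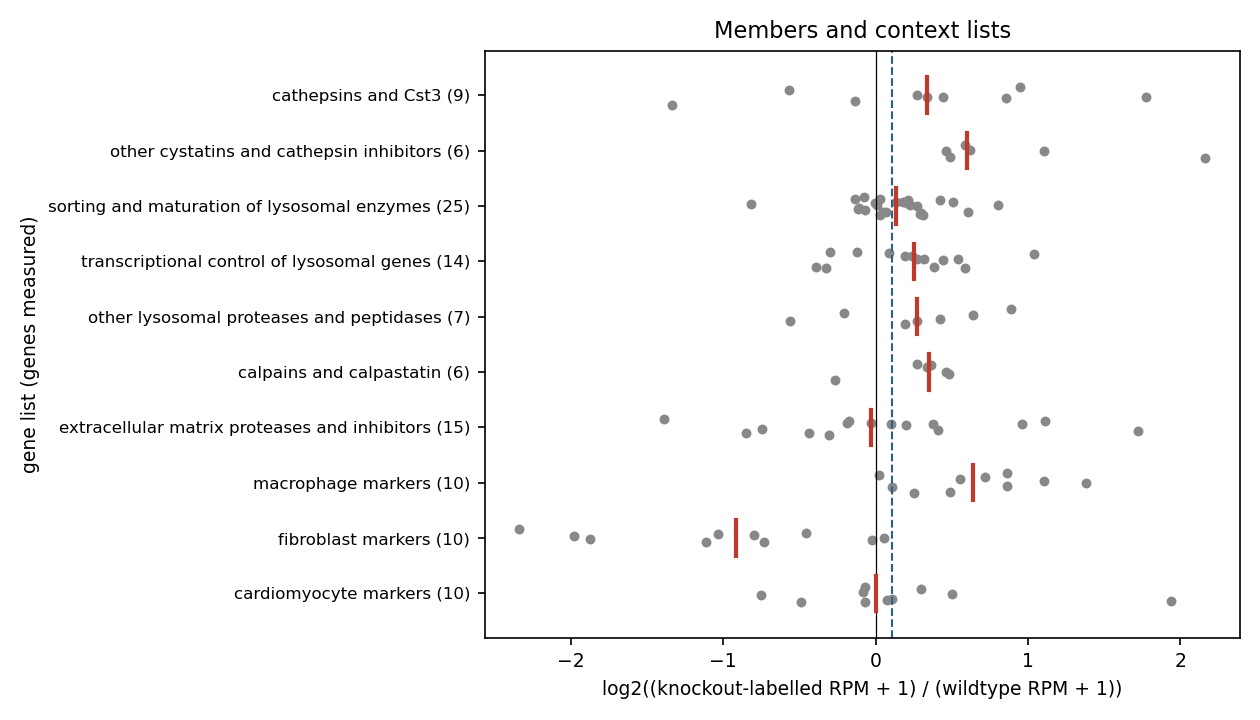
Log2 ratio of the knockout-labelled over the wildtype library with a pseudocount of 1 RPM for the measured genes of each list (grey points; vertical jitter has no meaning; 1 library per group), with the number measured in parentheses. Red bars are list medians, and the dashed line is the median of all measured genes, 0.11. The cathepsins and Cst3 have a median of 0.34 and spread to both sides.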

How the data were processed

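The authors sequenced left ventricular mRNA of 1 Lamp2 knockout-labelled and 1 wildtype mouse, grouped here by genotype label. The submitters' processing notes name STAR, mm10 and GRCm38. How reads were counted, with multiple matches and strand, is not given in the sources used here. Read counts per gene symbol were deposited with RPM values, which equal the count over the library total times 1000000 within 5e-05. The fold (ratio) and the p-value that the authors deposited were not used.

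Deposited starts count from 0 (the start plus 1 matched a GENCODE M21 transcript start for 44.6% of 8968 measured genes) and are given plus 1. The 3 rescalings divided ratios by the median ratio (log2 shift 0.12), by a trimmed mean of log ratios (trimming, per end, 30% of ratios plus 5% of levels; shift 0.12), or by library totals that leave out mitochondrial rows and the 10 most abundant genes (shift 0.20). Balances between genes carry exact conditional odds ratio intervals. Intervals and floors treat reads as independent, which PCR copies are not. Genes named are the members, Lamp2 and, of the 13 other lists, genes past the 2-fold rule and up to 4 abundant ones, unless marked or named as cell type markers or relatives. Lgmn is named under a list it shares. The members and lists were chosen with earlier results of these data known. The calling rule was tried on simulated counts that hold counting error only, which cannot show how it behaves with spread between animals. Alternatives were the rescalings, other pseudocounts, minimums, fold limits and sums. Python 3.11.15, numpy 2.4.6, pandas 2.3.3, scipy 1.17.1 and BLAST 2.17.0 were used.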

Additional observations from a re-analysis of the deposited data

How the results depend on the processing

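No paired analysis was possible because each group holds 1 library. Ctsl and Ctsc were the members past the rule with a pseudocount of 0.1 or 5 RPM, a minimum of 1 or 20 RPM or none, and in the 3 rescalings; a 1.5-fold rule added Ctsz and Ctss, for 4 members, and a 3-fold rule left 1, Ctsl. The count over all genes was 269 with a pseudocount of 5 RPM, 312 with a minimum of 20 RPM, 2052 with a 1.5-fold rule and 133 with a 3-fold rule, against 584. Rescaling turned its balance, from 342 higher and 242 lower (58.6% higher) to 244 and 308 (44.2%) with the median ratio, 243 and 310 (43.9%) with the trimmed mean, and 209 and 375 (35.8%) with totals that leave out mitochondrial rows and the 10 most abundant genes. In the same order of rescalings the summed cathepsin ratio was 1.41, 1.40 and 1.33, and without Ctsl it was 1.21. The cathepsin to Cst3 balance was 0.887 without Ctsl, in the other direction, and 1.14 with reads per kilobase. All 10 members stayed on the same side of 1 under the rescalings. List medians changed sign for endothelial markers (−0.084, −0.087 and −0.16, from 0.03), cardiomyocyte markers (−0.11, −0.12 and −0.19, from 0.00), the sorting list with the last rescaling (−0.056) and the matrix protease list with a minimum of 20 RPM (0.15). Each rescaling lowers every log2 ratio by about its shift, 0.12 to 0.20, so a median above 0 by less than the shift falls below 0. A minimum of 20 RPM changes which genes are counted. Depth limits Ctsk, Ctss, Ctsh and Ctsc most, each with 99 reads or fewer in the knockout-labelled library.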
